A study of Mus musculus with 9 samples.

Results

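Integrin subunits and laminin chains were taken as the genes whose symbol in the deposited table begins with Itga or Itgb and a subunit designation, or with Lama, Lamb or Lamc and a number. The pattern found 36 of the 33495 genes listed, 25 integrin subunits and 11 laminin chains, and these were read separately. RNA had been sequenced from RF8 mouse embryonic stem (ES) cells that were transfected with EGFP, wild-type Nanog (WT) or Nanog L122A (L122A), a substitution that the series title counts among homeodomain mutants. EGFP is a fluorescent protein and serves here as the comparator, and Nanog is a pluripotency transcription factor. Each transfectant was grown with leukaemia inhibitory factor (LIF, 1000 units per ml), the cytokine on which self-renewal of mouse ES cells depends, or with LIF withdrawn, or with LIF withdrawn and retinoic acid (RA) added at 5 µM. RA is a vitamin A derivative that drives ES cells to differentiate. Puromycin and fetal calf serum are stated for the routine culture with LIF, and neither the time in culture nor the number of clones is stated in the labels. There was 1 library for each of the 9 combinations and no replicate of any. Libraries are named by transfectant and culture, and values given in threes are in the order EGFP, WT, L122A.

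Integrins are receptors made of 1 alpha and 1 beta subunit that join the extracellular matrix, or a neighbouring cell, to the actin cytoskeleton. Laminins are secreted trimers of 1 alpha, 1 beta and 1 gamma chain that form the basement membrane together with type IV collagen, nidogen and perlecan, and alpha 3 beta 1 and alpha 6 beta 1 integrins are among their receptors. In the early mouse embryo, laminin with the alpha 1, beta 1 and gamma 1 chains is laid down under primitive endoderm, and integrins that hold the alpha V or alpha 5 subunit bind fibronectin and related ligands.

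RefSeq promoter windows (GRCm38.p6), taken as the 250 bases before a gene's start, were found for 22 of the 36 members in 25 windows. Those of 3 integrin subunits and 2 laminin chains that were higher with RA than with LIF in each transfectant are shown. Shared regulation of these genes was not tested. The windows are at chr2:83724147-83724396 (Itgav, plus strand), chr8:128685404-128685653 (Itgb1, plus), chr15:103366792-103367041 (Itga5, minus), chr2:180225905-180226109 (Lama5, minus, the part outside any exon) and chr12:31265043-31265145 (Lamb1, listed as Lamb1-1, plus, the part outside any exon). Each is written 5′ to 3′ on the gene's strand, with capitals for the GC box GGGCGG or its reverse complement CCGCCC, a motif bound by Sp1-family factors.
Itgav: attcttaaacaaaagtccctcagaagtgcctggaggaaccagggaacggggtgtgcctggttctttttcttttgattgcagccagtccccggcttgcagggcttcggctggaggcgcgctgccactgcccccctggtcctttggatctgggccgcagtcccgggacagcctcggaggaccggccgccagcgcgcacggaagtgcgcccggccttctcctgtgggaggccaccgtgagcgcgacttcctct
Itgb1: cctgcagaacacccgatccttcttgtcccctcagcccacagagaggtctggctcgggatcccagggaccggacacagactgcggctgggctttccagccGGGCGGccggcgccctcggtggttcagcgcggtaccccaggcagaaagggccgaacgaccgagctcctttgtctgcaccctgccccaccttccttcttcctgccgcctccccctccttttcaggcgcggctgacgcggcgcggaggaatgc
Itga5: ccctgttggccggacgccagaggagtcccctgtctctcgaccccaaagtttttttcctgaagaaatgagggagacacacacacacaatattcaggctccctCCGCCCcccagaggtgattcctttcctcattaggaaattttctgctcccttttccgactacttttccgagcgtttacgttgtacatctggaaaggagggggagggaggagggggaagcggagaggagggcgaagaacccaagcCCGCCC
Lama5: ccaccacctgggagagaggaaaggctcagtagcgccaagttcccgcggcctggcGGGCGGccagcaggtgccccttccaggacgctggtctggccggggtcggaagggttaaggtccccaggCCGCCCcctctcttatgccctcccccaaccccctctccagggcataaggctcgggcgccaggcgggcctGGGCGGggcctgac
Lamb1: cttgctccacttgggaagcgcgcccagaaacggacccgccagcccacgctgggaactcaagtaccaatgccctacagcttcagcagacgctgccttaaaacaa
On both strands, the GC box was found in 7 of 19 integrin windows and 2 of 6 laminin windows, against 32.7% of all 32851 windows of this length. The 2 laminin windows were those of Lama5 and Lamb1, with 4 and 2 GC boxes over the full 250 bases. The printed parts of these windows hold 3 and 0 of them. The AGGTCA half-site that nuclear receptors, RA receptors included, can bind was found in 0 of 19 and 0 of 6, against 14.0% of all windows, and TATAAA likewise in 0 and 0, against 12.4%. GATA, the core letters of GATA-factor sites, was found in 8 of 19 and 2 of 6, against 53.6%. These are matches of letters in a window and say nothing of what binds there. No window was found for Itgb3, Itgae, Lama1, Lama4 and Lamc1, among other members, so their promoters were not read.

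The table gave raw counts per gene and FPKM, a level scaled to gene length and to the library's total. Total counts per library ran from 24166395 (L122A LIF) to 28714988 (EGFP RA), and 1 count was worth between 0.0281 and 0.0507 CPM. CPM are counts scaled to library size, here adjusted by trimmed-mean (TMM) factors, and are not corrected for gene length. The columns taken as the LIF culture carry a name that is in no label and were assigned by elimination. Nanog itself stood at 385, 223 and 240 CPM with LIF, 291, 168 and 130 without LIF, and 0.873, 195 and 259 with RA. Only in RA was its level higher in the libraries labelled WT and L122A than in the EGFP library. Summed CPM of 10 ES cell markers were 3517, 5707 and 4093 with LIF, 1929, 4133 and 4545 without LIF, and 17.1, 131 and 583 with RA. With no replicate, both factors were fitted additively by edgeR's quasi-likelihood method over the 9 libraries. The p-values, adjusted by Benjamini-Hochberg over the 13996 genes that reached 1 CPM in 3 or more libraries, ask whether a culture effect recurred in the 3 transfectants, or a transfectant effect in the 3 cultures, and not whether it recurred in repeat cultures. Tested were 18 of 25 integrin subunits and 8 of 11 laminin chains.

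Per length, transcripts for laminin-binding alpha subunits were the largest class with LIF, and Itgb1 was nearly the whole of the beta class everywhere. Itga6, the alpha 6 subunit, made up 45.7%, 52.2% and 48.9% of summed alpha-subunit FPKM with LIF. With RA its share was 18.4%, 25.6% and 28.6%, while its own CPM stayed between 109 and 161 in every library but EGFP no-LIF, which held 89.9. The share of Itgav, the alpha V subunit, was 10.1%, 6.56% and 6.05% with LIF, 10.7%, 7.71% and 6.40% without LIF, and 35.1%, 32.2% and 26.4% with RA. It ranked first among alpha subunits in EGFP RA and WT RA. In EGFP no-LIF the first rank went to Itga3, the alpha 3 subunit, with 38.3%, against 8.50% and 9.64% in the WT and L122A libraries of that culture. Itgb1 took between 89.4% (L122A no-LIF) and 97.9% (EGFP RA) of summed beta-subunit FPKM. Its FPKM exceeded that of all alpha subunits summed in each library, from 1.82 times (L122A LIF) to 4.56 times (EGFP RA).

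**Figure D1:**
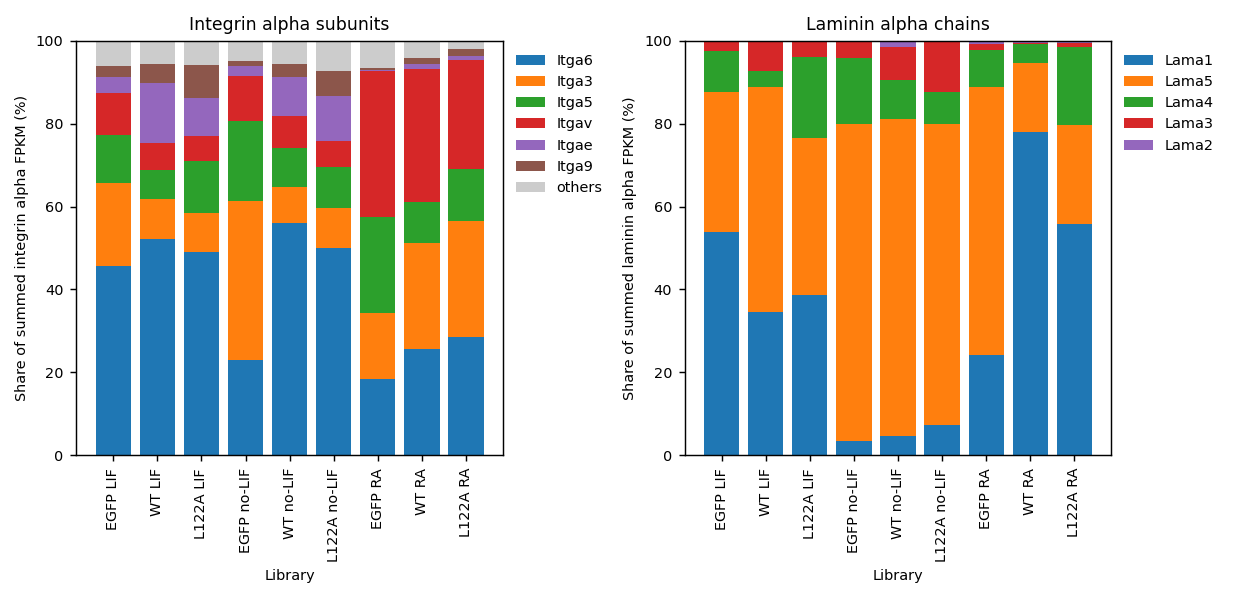
Stacked bars show the share (%) of summed FPKM held by each integrin alpha subunit (left) and each laminin alpha chain (right), with 1 bar for each of the 9 libraries. Itgav takes 26.4% to 35.1% of the integrin class in RA libraries, and Lama5 takes 72.6% to 76.5% of the laminin class in no-LIF libraries.

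The shares of the laminin alpha chains differed between cultures. Lama1, the alpha 1 chain of the early embryonic laminin, held 53.9%, 34.7% and 38.7% of summed alpha-chain FPKM with LIF. Lama5, the alpha 5 chain of most later epithelial basement membranes, held 33.8%, 54.1% and 37.8% with LIF, ranking first in WT LIF. Without LIF Lama1 held 3.43%, 4.74% and 7.26%, and Lama5 held 76.5%, 76.3% and 72.6%. With RA the transfectants differed, with Lama1 at 24.1%, 77.9% and 55.8% and Lama5 at 64.7%, 16.6% and 23.9%. Among beta chains, Lamb1-1 held 75.9% to 89.5% and Lamb2 most of the rest. The FPKM of Lamc1 was 1.24 to 4.31 times that of Lamb1-1.

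RA against LIF gave calls for 12 of the 18 integrin subunits tested, 7 higher and 5 lower, where 48.2% of all genes tested were called (24.5% higher and 23.8% lower). The subunits that rose were Itgav, Itga3, Itgb1, Itga8, Itgb5, Itga5 and Itgb3, and those that fell were Itgal, Itgae, Itgb7, Itgam and Itga9. The median log2 difference over the 18 was 0.79, against 0.01 over all genes tested. At such a background the count by itself is no result about integrins, and the members are described by their values. Fewer cells of a type and less RNA per cell cannot be told apart in these bulk libraries. The RA cultures also lacked LIF, so RA against LIF does not separate RA from LIF withdrawal.

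Among beta subunits, Itgb1 (chr8:131209553-131257100, mm9, plus strand), the common partner of alpha 3, alpha 5, alpha 6, alpha 8 and others, stood at 351, 239 and 244 CPM with LIF. It stood at 740, 273 and 223 without LIF and at 1543, 629 and 528 with RA. Within each transfectant the RA library was the highest, but EGFP no-LIF lay above both Nanog RA libraries. Itgb1 was higher in RA than in LIF culture by 1.52 on the log2 scale (SE 0.24, edgeR adjusted p = 0.00174). Itgb3, a partner of alpha V and of the platelet alpha IIb subunit, was at 6.73, 6.56 and 13.4 CPM with LIF, 4.28, 2.66 and 8.72 without and 19.8, 13.7 and 27.1 with RA. The RA libraries were the highest 3, with L122A LIF just under WT RA, and the rise was 1.21 (SE 0.25, adjusted p = 0.00531). Itgb5, another partner of alpha V, was at 5.83, 4.63 and 4.97 CPM with LIF, 8.52, 5.85 and 7.86 without and 12.5, 12.2 and 15.4 with RA. All 3 RA libraries lay above the other 6, and the rise was 1.38 (SE 0.25, adjusted p = 0.00293). Itgb4, the alpha 6 partner of hemidesmosomes, was at 4.36, 5.08 and 8.001 with LIF, 2.90, 5.85 and 8.06 without, and 5.05, 6.05 and 12.6 with RA. Its difference against LIF was 0.37 (SE 0.29, adjusted p = 0.307), and the L122A library was the highest in each culture.

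Itgav (chr2:83564553-83647073, mm9, plus strand) had the largest rise of any integrin subunit called. It stood at 38.1, 22.7 and 21.7 CPM with LIF, 47.0, 23.0 and 20.5 without LIF and 319, 154 and 164 with RA. The 3 RA libraries lay above the other 6 by a wide margin, and within a transfectant the RA to LIF ratio was 8.37, 6.77 and 7.56 (95% Poisson intervals 7.87 to 8.91, 6.16 to 7.47 and 6.88 to 8.31, counting error only). The model gave 2.91 (SE 0.18, adjusted p = 9.7e-05).

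Itga5 (chr15:103174719-103197194, mm9, minus strand), the fibronectin receptor alpha subunit, was at 19.2, 10.6 and 19.3 CPM with LIF, 37.0, 12.3 and 13.7 without and 90.6, 20.4 and 34.2 with RA. EGFP RA stood apart from the Nanog RA libraries, and EGFP no-LIF lay above both of them. The rise was 1.31 (SE 0.31, adjusted p = 0.00888). Itga3 was at 42.6, 19.0 and 19.5 with LIF, 94.8, 14.4 and 17.4 without and 82.0, 69.2 and 98.1 with RA. In the EGFP cells it was therefore highest without LIF, whereas in WT and L122A cells it was highest with RA, and the fitted rise was 1.84 (SE 0.48, adjusted p = 0.0150). Itga8, a subunit that binds nephronectin, was low, at 3.25, 1.63 and 1.04 with LIF, 6.95, 0.899 and 1.72 without and 10.7, 2.88 and 3.43 with RA, a rise of 1.38 (SE 0.43, adjusted p = 0.0280). Itga6 did not pass the test (-0.18, SE 0.23, adjusted p = 0.535).

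The calls of Itga3 and Itga8 were each lost when any 1 of several libraries was omitted. Itga3 missed the threshold when any 1 of 5 libraries, all 3 LIF libraries, WT RA and L122A RA, was omitted (log2 1.41 to 2.00, adjusted p = 0.0514 to 0.0746), and Itga8 without EGFP LIF or L122A LIF, and without WT RA or L122A RA (1.11 to 1.43, adjusted p = 0.0680 to 0.105). In a model with no transfectant term the calls of Itga3, Itga5, Itga8 and Itgb3 were also lost.

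**Figure D2:**
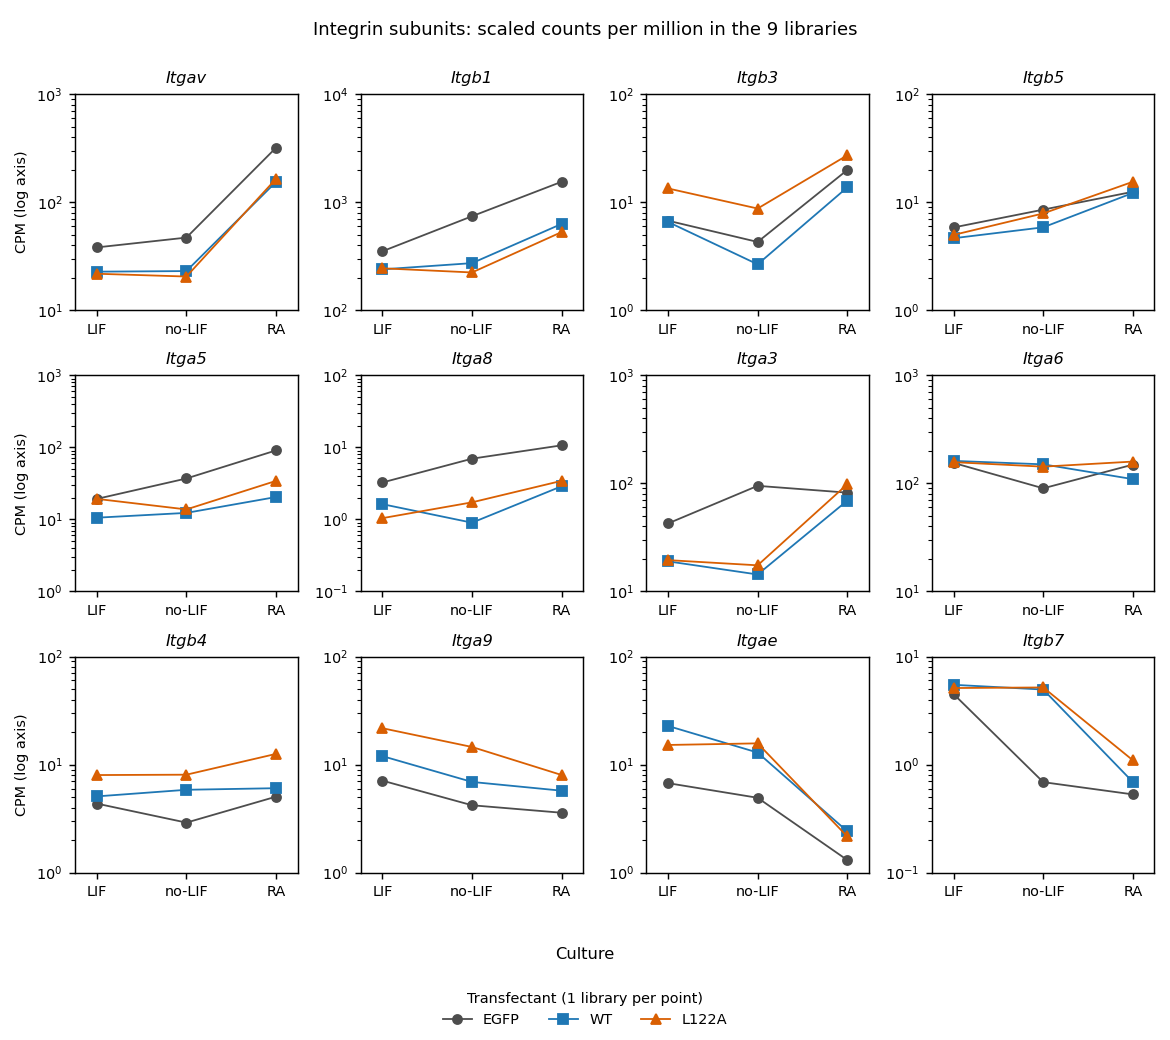
CPM on a log axis for 12 integrin subunits in the 3 cultures, with 1 point per library and lines joining the libraries of a transfectant. Itgav and Itgb5 are highest in the 3 RA libraries, Itgae and Itgb7 are lower there than with LIF, and Itga6 spans 89.9 to 161 CPM.

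Of the subunits that fell with RA, Itgb7, Itgam and Itgal stayed at or below 7.15 CPM in each library. Itgae reached 22.8 CPM (WT LIF) and Itga9 21.7 CPM (L122A LIF). Itgae, the alpha E partner of beta 7 known from mucosal T cells, was at 6.73, 22.8 and 15.2 CPM with LIF, 4.93, 12.9 and 15.7 without and 1.31, 2.41 and 2.16 with RA. The 3 RA libraries lay below the other 6, and the change was -2.81 (SE 0.31, adjusted p = 4.7e-04). The span of Itgae holds Gsg2 (haspin kinase) on the other strand with 356% of the count of Itgae, and no source used here states the strand setting, so reads of the 2 genes cannot be told apart unless strand was used. Itgb7 was at 4.49, 5.47 and 5.11 with LIF, 0.688, 4.95 and 5.17 without and 0.530, 0.689 and 1.10 with RA. EGFP no-LIF sat with the RA libraries, and the change was -2.80 (SE 0.59, adjusted p = 0.00549).

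Itgam, the alpha M subunit of myeloid cells, was at 1.94, 2.76 and 2.26 with LIF, 2.10, 2.94 and 7.15 without and 0.530, 0.345 and 0.337 with RA (-2.49, SE 0.56, adjusted p = 0.00755), a call that limma did not give (adjusted p = 0.0968). Itgal, the alpha L subunit of lymphocytes, was at 3.35, 2.02 and 2.80 with LIF, 0.0382, 1.80 and 1.32 without and 0.0935, 0.407 and 0.899 with RA (-3.11, SE 1.03, adjusted p = 0.0355). Its call was lost without EGFP LIF, EGFP RA, WT RA or L122A no-LIF (-3.10 to -1.70, adjusted p = 0.0574 to 0.116), under total-count scaling, in limma and in a model with no transfectant term. Itga9, which binds tenascin and osteopontin, was at 7.10, 11.98 and 21.7 with LIF, 4.20, 6.91 and 14.6 without and 3.58, 5.73 and 8.01 with RA. Every transfectant had its lowest value in RA, though L122A RA lay above EGFP LIF, and the change was -1.16 (SE 0.25, adjusted p = 0.00580). It too was lost in limma (adjusted p = 0.0576) and in a model with no transfectant term.

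Of 10 leukocyte markers, 5 were tested and 2 fell with RA against LIF (Cd3e and Coro1a), where 23.8% of all genes tested fell. Their summed CPM was 40.7, 63.1 and 110 with LIF, 16.6, 36.8 and 59.2 without LIF and 25.0, 23.9 and 88.0 with RA. Laptm5, a lysosomal protein of blood cells, was at 1.03 to 75.04 CPM and made up 72.7 of the sum in L122A RA, and Cd68, a macrophage and lysosomal marker, was at 6.95 to 19.1 CPM in the 9 libraries. Ptprc, the leukocyte common antigen, had no count in 8 of the 9 libraries and 0.0627 CPM in WT RA, and Tyrobp had no count in 8 of 9. Itgb2, the beta subunit that alpha L and alpha M require, was at 0 to 0.623 CPM.

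Of the 8 laminin chains tested, 7 rose and 0 fell with RA against LIF, where 24.5% of all genes tested rose. The median log2 difference over the 8 was 1.78, against 0.01 over all genes tested. Lama3, a chain of epidermal laminin, was the exception, at 0.407 to 2.48 CPM (-0.83, SE 0.59, adjusted p = 0.273).

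Lamb1-1 (chr12:31950158-32014504, mm9, plus strand), the beta 1 chain, was at 34.1, 25.8 and 19.0 CPM with LIF, 35.7, 41.7 and 17.4 without and 146, 152 and 56.5 with RA. The 3 RA libraries lay above the other 6, with L122A RA the lowest of the 3, and the rise was 2.06 (SE 0.22, adjusted p = 4.7e-04). Lamc1 (chr1:155066052-155179916, mm9, minus strand), the gamma chain of most laminins, was at 113, 76.1 and 104 with LIF, 58.5, 82.2 and 80.7 without and 261, 426 and 321 with RA. Here the RA libraries were again the highest 3, with EGFP the lowest of them, and the rise was 1.75 (SE 0.26, adjusted p = 0.00126). Lamb2, the beta 2 chain, was at 5.43, 4.29 and 5.79 with LIF, 5.16, 4.09 and 4.06 without and 16.4, 21.6 and 15.9 with RA, a rise of 1.80 (SE 0.28, adjusted p = 0.00151). Lama5 (chr2:179911077-179960564, mm9, minus strand) was at 18.1, 22.8 and 16.0 with LIF, 34.1, 25.4 and 18.3 without and 65.9, 53.5 and 34.6 with RA. L122A RA lay just above EGFP no-LIF, and the rise was 1.39 (SE 0.22, adjusted p = 0.00156).

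Lama1 (chr17:68046604-68171985, mm9, plus strand) spanned 1.30 to 210 CPM. It was at 24.1, 12.2 and 13.7 CPM with LIF, 1.30, 1.31 and 1.52 without LIF and 20.6, 210 and 67.5 with RA. In EGFP the RA library lay slightly under the LIF library, while in WT it was 17.2 times as high (95% Poisson interval 15.2 to 19.6) and in L122A 4.91 times (4.36 to 5.55). The rise in the additive model was 2.23 (SE 0.75, adjusted p = 0.0398). Lama4, a chain of mesenchymal and vessel laminins, was at 2.78, 0.887 and 4.38 with LIF, 3.67, 1.63 and 1.01 without and 4.77, 7.93 and 14.3 with RA (1.89, SE 0.65, adjusted p = 0.0413).

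The calls of Lama1 and Lama4 lay near the threshold, and each was lost when any 1 of several libraries was omitted. Lama1 missed the threshold without EGFP no-LIF, WT LIF, WT no-LIF, WT RA, L122A LIF, L122A no-LIF or L122A RA (1.17 to 2.33, adjusted p = 0.0597 to 0.192). Lama4 missed it without EGFP LIF, WT LIF, WT no-LIF, WT RA or L122A RA (1.44 to 1.91, adjusted p = 0.0645 to 0.187). Lama1 also missed it with no filter on low counts (2.28, adjusted p = 0.184) and with only the 6 libraries compared (2.07, adjusted p = 0.120), and Lama4 in a model with no transfectant term (1.74, adjusted p = 0.0624). Without WT RA, or without L122A RA, 4 laminin chains were called.

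**Figure D3:**
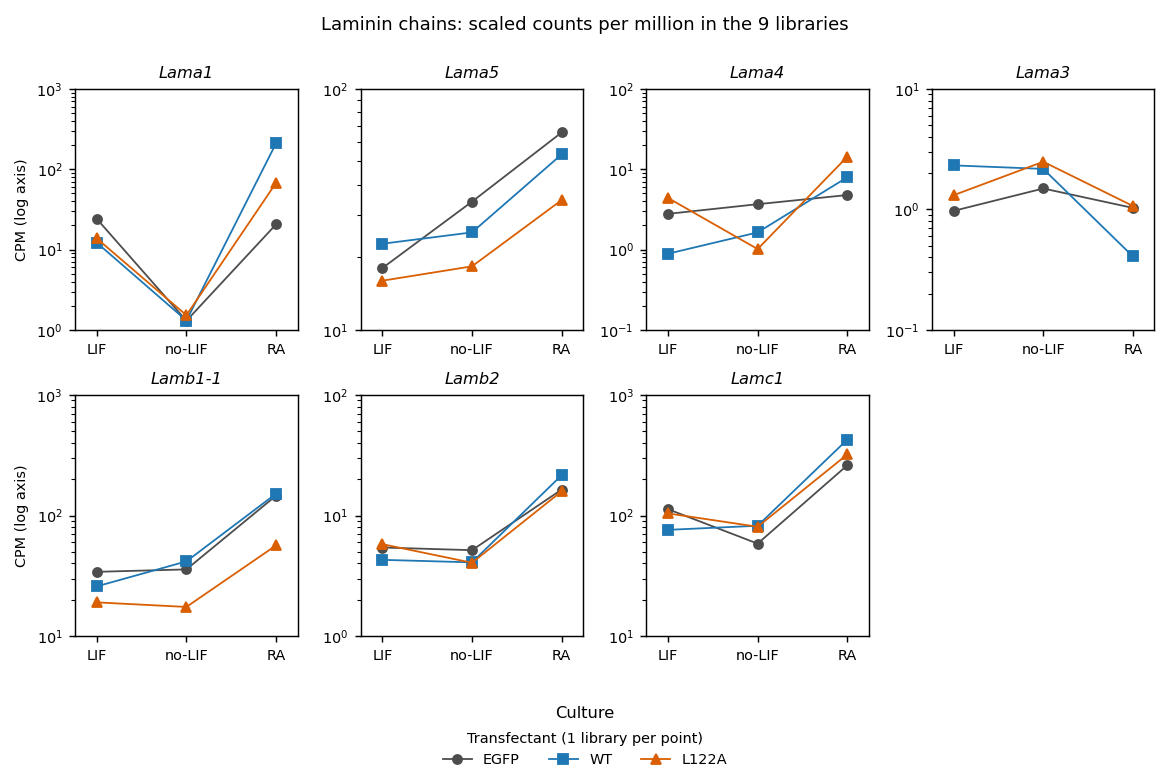
CPM on a log axis for 7 laminin chains, by culture, with 1 point per library and lines joining the libraries of a transfectant. Lama1 is lowest without LIF in each transfectant and spreads from 20.6 to 210 CPM with RA, while Lamb1-1, Lamb2 and Lamc1 are highest in the 3 RA libraries.

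RA against no-LIF, a comparison that shares the RA libraries with the one above, gave 6 integrin subunits higher and 3 lower of 18, with 44.5% of all genes called (22.6% higher and 21.9% lower). Laminin chains were 7 higher and 0 lower of 8. Lama1 rose by 5.91 (SE 0.85, adjusted p = 0.00163), with RA to no-LIF ratios of 15.8 (interval 11.2 to 23.1), 160 (114 to 235) and 44.4 (31.0 to 65.9). Itgav rose by 2.83 (SE 0.17, adjusted p = 1.1e-04), Itgb3 by 2.06 (SE 0.26, adjusted p = 9.1e-04), Itgb1 by 1.16 (SE 0.24, adjusted p = 0.00559) and Itga5 by 1.12 (SE 0.30, adjusted p = 0.0177). Itga3 rose by 1.51 and Itgb5 by 0.86, and Itgae, Itgam and Itgb7 fell by 2.41, 3.18 and 2.02. Lamb1-1, Lamb2, Lamc1, Lama4 and Lama5 rose by between 0.98 (Lama5) and 2.19 (Lamc1).

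Several of these calls against no-LIF were lost when 1 library was omitted or under another setting. Itga3 was lost without any one of EGFP LIF, WT LIF, WT no-LIF, WT RA, L122A LIF, L122A no-LIF or L122A RA (1.11 to 1.55, adjusted p = 0.0537 to 0.174). Itga5 was lost without EGFP RA or L122A no-LIF (0.84 to 0.92, adjusted p = 0.0728 to 0.0814). Itgb5 and Itgb7 were each lost without WT no-LIF, WT RA, L122A no-LIF or L122A RA (0.77 to 0.86, adjusted p = 0.0704 to 0.0999, and -2.10 to -1.58, adjusted p = 0.0573 to 0.118). Lama4 was lost without EGFP LIF, WT no-LIF, WT RA, L122A no-LIF or L122A RA (1.39 to 2.20, adjusted p = 0.0568 to 0.179). Without L122A no-LIF, 5 integrin subunits were called. With no transfectant term Itga3, Itga5 and Itgb1 were lost (adjusted p = 0.280, 0.142 and 0.122). Itgb7 was lost under total-count scaling and in limma (adjusted p = 0.0594 and 0.0673), Itga3 with no filter, and Itga3 and Lama4 with only the 6 libraries compared.

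Scaling by total counts in place of TMM factors moved the median over all genes to 0.39 for RA against LIF and 0.43 for RA against no-LIF. The split of all called genes then became 4503 higher and 1945 lower, and 4456 higher and 1679 lower, from 3423 and 3328, and 3168 and 3067. Under that scaling the integrin subunits were 7 higher and 4 lower against LIF and 7 higher and 2 lower against no-LIF, and the laminin chains 7 higher and 0 lower in both.

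Within single transfectants, counts past 2-fold among members at 5 CPM or more in either library were as follows for RA against LIF. In EGFP 8 of 13 integrin subunits were higher and 1 lower, and 5 of 6 laminin chains higher (40.4% of all genes past 2-fold). This share and those in brackets below count all genes past 2-fold in either direction. WT had 5 of 11 integrin subunits higher and 3 lower, and 6 of 7 laminin chains higher (47.3%). L122A had 5 of 12 higher and 4 lower, and 7 of 7 higher (37.9%). Itgav, Itgb1, Itgb3, Itgb5, Lama5, Lamb1-1, Lamb2 and Lamc1 were past 2-fold higher in each transfectant. With this 5 CPM minimum, Itga1, Itga4, Itga5 and Itga8 were so in EGFP alone, and Itga3, Lama1 and Lama4 in WT and L122A. Under the minimum, Itga1 was at 1.22 CPM in WT RA against 0.0986 in WT LIF. Itga8 was at 3.43 CPM in L122A RA against 1.04 in L122A LIF, also under the minimum. Itga1 went the other way in L122A, at 0.309 CPM with RA against 1.04 with LIF. For RA against no-LIF the integrin counts were 6 higher and 1 lower of 12 in EGFP (38.4%), 5 and 1 of 10 in WT (38.4%) and 5 and 3 of 12 in L122A (43.4%). The laminin counts were 4 of 6, 7 of 7 and 6 of 7 higher, with 0 lower in each.

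**Figure D4:**
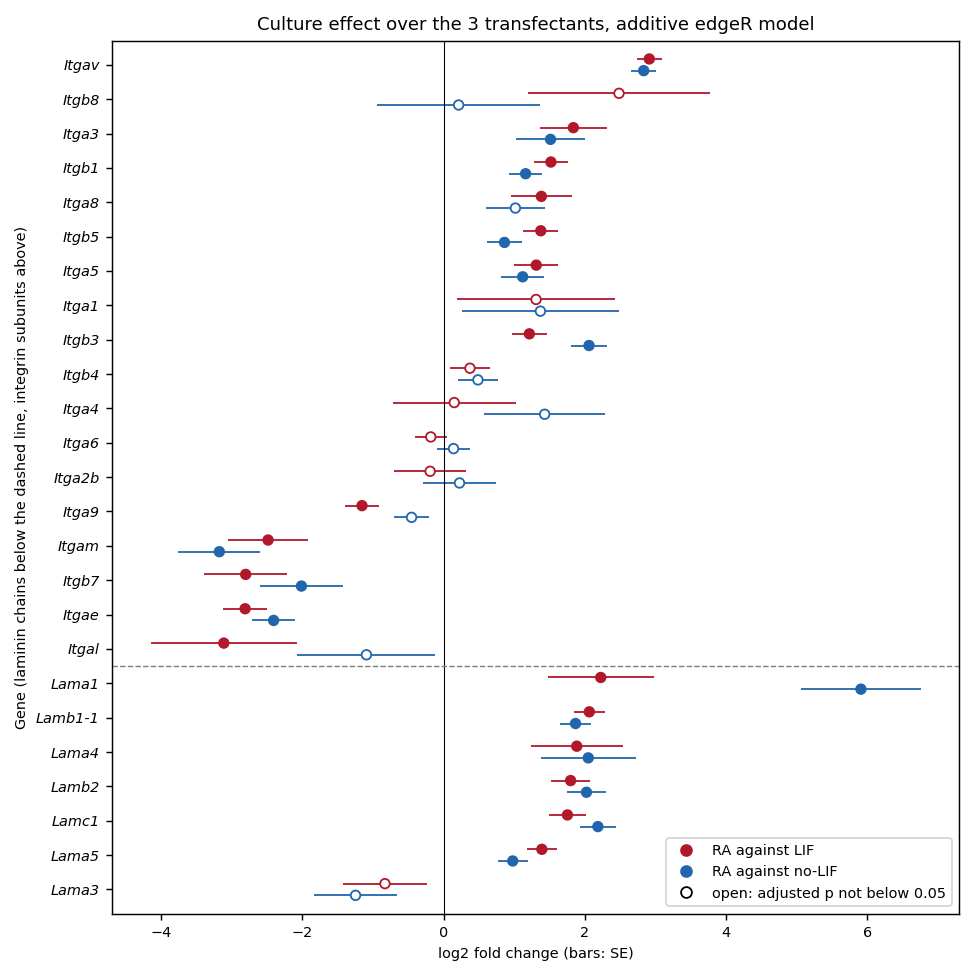
Points are log2 fold changes from the additive edgeR model with SE bars, for 18 integrin subunits and 7 laminin chains, filled where the adjusted p was below 0.05. Lama1 differs most between the comparisons, at 2.23 against LIF and 5.91 against no-LIF, and Itgav lies near 2.9 in both (2.91 and 2.83).

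Genes of the same pathway were read from lists written from general knowledge. Of 22 tested integrin activators and focal adhesion proteins, 16 rose and 0 fell with RA against LIF, with a median of 1.52. Parva, which links integrin-linked kinase to actin, rose by 4.54 (SE 0.50, adjusted p = 5.3e-04), Zyx (zyxin) by 3.16 (SE 0.24, adjusted p = 2.2e-04) and Vcl (vinculin) by 3.07 (SE 0.24, adjusted p = 2.1e-04). Of 11 other basement membrane components, 10 rose and 0 fell, with a median of 2.41. Col4a1 and Col4a2, the type IV collagen chains, rose by 4.71 (SE 0.52) and 4.59 (SE 0.47), and Ntn4, a netrin that binds laminin, by 3.84 (SE 0.67). Both shares exceeded the 24.5% of all genes called higher.

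Col4a1 was at 26.1, 7.10 and 5.15 CPM with LIF, 27.2, 6.83 and 5.53 without and 297, 429 and 109 with RA, so that, as for Lama1, WT RA was the highest library. Nid1 (nidogen 1), which bridges laminin and type IV collagen, was at 424, 86.6 and 59.2 with RA and at 20.2 to 45.5 in the other EGFP libraries and 9.99 to 19.3 in the other Nanog libraries, so that EGFP RA was the highest.

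Of 10 tested ligands of integrins other than laminin, 7 rose and 2 fell, with a median of 2.33. Among all genes tested, 24.5% rose and 23.8% fell. Tnc (tenascin C) rose by 6.13 (SE 0.46, adjusted p = 2.0e-04), Fbn1 (fibrillin 1) by 3.74 (SE 0.37) and Npnt (nephronectin, the ligand of alpha 8 beta 1) by 3.56 (SE 0.39). Spp1 (osteopontin) fell by 2.18 (SE 0.76, adjusted p = 0.0453) and Icam1, a ligand of leukocyte integrins, by 2.08 (SE 0.31). Fn1, fibronectin, was at 145, 44.9 and 35.7 CPM with LIF, 136, 74.4 and 33.9 without and 810, 223 and 249 with RA. Vtn, vitronectin, did not exceed 0.362 CPM in any library. Of 8 laminin receptors that are not integrins, 3 rose (Sdc2 by 2.12, Dag1, dystroglycan, by 1.86 and Sgce by 1.85) and 0 fell, with a median of 0.57, which is closer to the background than the other lists.

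Markers of other cell types moved with the same contrast, where 24.5% of all genes tested were called higher and 23.8% lower. Of 10 tested extraembryonic endoderm markers, 8 rose and 1 (Amn) fell with RA against LIF, the largest rises being Foxa2 (6.39, SE 1.84), Plat (5.80, SE 0.50) and Pdgfra (5.08, SE 0.67). The summed level of all 14 was 35.4, 10.8 and 9.72 CPM with LIF, 33.4, 15.5 and 8.67 without LIF and 255, 335 and 94.4 with RA. Gata6 was at 34.0, 26.9 and 8.88 CPM with RA and Sox7 at 1.62, 25.8 and 21.9. Of 8 tested fibroblast markers, 6 rose and 0 fell, led by Col3a1 (7.92, SE 0.54), Dcn (5.46, SE 0.72) and Fbn1, which also stands in the ligand list. The sum of all 10 was 33.2, 12.03 and 20.9 with LIF, 36.7, 15.6 and 14.9 without LIF and 472, 88.7 and 54.8 with RA.

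Among the RA libraries the endoderm sum was highest in WT and the fibroblast sum in EGFP, and both were lowest in L122A. A large part of the WT lead in the endoderm sum came from Cubn, at 70.1 CPM in WT RA against 6.11 in EGFP RA. Gata6, Plat and Thbd were higher in EGFP RA than in WT RA, and the other endoderm markers were higher in WT RA. Of the members that rose, Lama1, Lamc1, Lamb1-1 and Lamb2 were highest in WT RA, and Itgav, Itgb1, Itga5, Itga8 and Lama5 in EGFP RA. Itga3, Itgb3, Itgb5 and Lama4 were highest in L122A RA, and Lama1 and Lamc1 were higher there than in EGFP RA. The part of these markers in the integrin and laminin results was not tested. The next counts stand beside 24.5% of all genes tested called higher and 23.8% lower. Of 10 ES cell markers 9 fell, led by Tdgf1 (-7.74, SE 0.45), Tdh (-6.44, SE 0.84) and Fgf4 (-5.76, SE 1.48). Keratinocyte markers gave 0 higher and 3 lower of 5 (Sfn -3.84, Col17a1 -2.62, Krt1 -2.33), with Krt5 at 0 to 0.246 CPM. Skeletal muscle markers gave 3 higher (Tnnt3 4.62, Acta1 4.49, Des 1.32) and 3 lower (Mylpf -5.10, Myh3 -3.26, Chrna1 -1.59) of 6. Platelet and megakaryocyte markers gave 1 higher of 2 (Ppbp 4.46), with Pf4 and Gp9 at 0 in each library.

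LIF withdrawal alone gave no called member, and the largest difference was a lower Lama1. No integrin subunit and no laminin chain was called without LIF against LIF (0 of 18 and 0 of 8, with 0.0714% of all genes called, 0.0143% higher and 0.0572% lower). At an unadjusted p below 0.05, edgeR gave 2 integrin subunits (Itgb3 and Itga9) and 1 laminin chain (Lama1). Called by DESeq2 were 0 integrin subunits and 1 laminin chain, and by limma 0 and 0. Lama1 lay lower in each transfectant, 24.1 against 1.30, 12.2 against 1.31 and 13.7 against 1.52 CPM. These are ratios of LIF to no-LIF of 18.5, 9.31 and 9.03, and no LIF library overlapped a no-LIF library. The model gave -3.69 (SE 0.78, edgeR adjusted p = 0.229). It passed in DESeq2 (-3.66, adjusted p = 3.5e-07), with only the 6 libraries compared (-3.52, adjusted p = 0.00315) and without EGFP RA (-3.57, adjusted p = 0.0231).

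Within EGFP, 11 integrin subunits reached 5 CPM with or without LIF, of which 4 were at least 2-fold higher without LIF and 0 lower (13.9% of all genes in either direction). They were Itga3 (94.8 against 42.6 CPM), Itga8 (6.95 against 3.25), Itgb1 (740 against 351) and Itgb8 (10.9 against 0.938). In WT 0 of 11 were higher and 1 lower (Itgb3, background 10.3%), and in L122A 1 of 13 was higher (Itgam) and 1 lower (Itga4, background 6.09%). Single libraries carry no test of these differences. The test of whether the no-LIF response differed between Nanog transfectants and EGFP called 0 members (0% of all genes). Unadjusted p was below 0.05 for 4 integrin subunits (Itga3, Itgal, Itgb1 and Itgb7) and 1 laminin chain, and DESeq2 and limma each called 0 and 0.

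Between transfectants, Itgb1, Itgav and Lamb1-1 were lower and Itga9 was higher in L122A than in EGFP. L122A against EGFP called 3 of 18 integrin subunits, Itga9 higher and Itgav and Itgb1 lower, and 1 of 8 laminin chains, Lamb1-1, lower. Of all genes tested, 2.88% were called (0.893% higher and 1.99% lower). Itgb1 fell by 1.28 (SE 0.24, adjusted p = 0.0341), Itgav by 0.99 (SE 0.17, adjusted p = 0.0243) and Lamb1-1 by 1.07 (SE 0.22, adjusted p = 0.0416), and Itga9 rose by 1.53 (SE 0.25, adjusted p = 0.0229). In each culture the L122A library held the higher Itga9 value and the lower value of the other 3 (for Itgb1 244 against 351, 223 against 740 and 528 against 1543 CPM).

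None of these 4 calls survived each omission of 1 library. Itga9 was lost without EGFP no-LIF, WT LIF, L122A LIF or L122A no-LIF (1.39 to 1.53, adjusted p = 0.0551 to 0.120). Itgav was lost without the same 4 or L122A RA (-1.06 to -0.90, adjusted p = 0.0511 to 0.136). Itgb1 was lost without EGFP no-LIF, WT LIF, WT no-LIF, WT RA, L122A no-LIF or L122A RA (-1.30 to -1.08, adjusted p = 0.0578 to 0.186). Lamb1-1 was lost without any library but WT LIF and L122A LIF (-1.15 to -0.93, adjusted p = 0.0621 to 0.200). The number of integrin subunits called was 9 with DESeq2, 1 with limma, and 0 with only the 6 libraries compared or with no culture term.

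WT against EGFP, which shares the EGFP libraries, called 0 of 18 integrin subunits and 0 of 8 laminin chains, with 0.322% of all genes called (0.0357% higher and 0.286% lower). At an unadjusted p below 0.05 there were 7 integrin subunits (Itga3, Itga5, Itga8, Itgav and Itgb1 lower, Itga9 and Itgae higher) and 0 laminin chains. DESeq2 called 6 and 0, edgeR with no filter 3 and 0, limma 0 and 0. The WT values were Itgb1 -1.13 (SE 0.24, adjusted p = 0.104), Itgav -0.94 (SE 0.17, adjusted p = 0.0675), Itga5 -1.58 (SE 0.31, adjusted p = 0.0847) and Lamb1-1 -0.02. Itga5 and Itgb1 were called without EGFP LIF (-1.94 and -1.43) and Itga3 without EGFP RA (-2.08). L122A against WT called 0 and 0 in edgeR, with 0% of all genes called. Unadjusted p was below 0.05 for 3 integrin subunits (Itga9, Itgb3 and Itgb4 higher) and 2 laminin chains (Lama5 and Lamb1-1 lower), and DESeq2 called 1 and 1 (Itgb3 and Lamb1-1), limma 0 and 0.

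**Figure D5:**
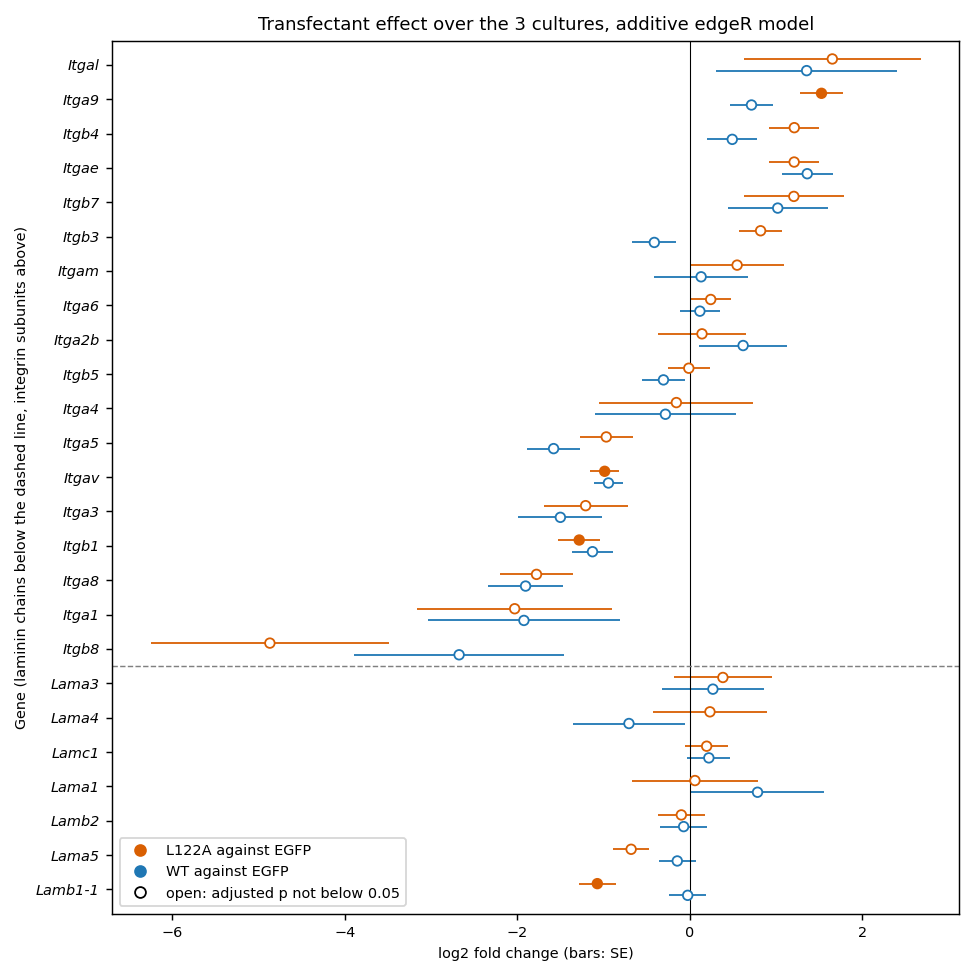
Points are log2 fold changes of each Nanog transfectant against EGFP from the additive edgeR model, with SE bars, filled where the adjusted p was below 0.05. Filled points are Itga9, Itgav, Itgb1 and Lamb1-1 in L122A, and no WT point is filled.

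In the pathway lists, WT against EGFP gave lower calls for Zyx (-2.10, SE 0.23, adjusted p = 0.0244) and Vcl (-1.45, SE 0.22, adjusted p = 0.0474) of 22 focal adhesion genes, and for Tnc (-5.95, SE 0.44, adjusted p = 0.00716) and Ctgf (-2.76, SE 0.35, adjusted p = 0.0266) of 10 ligands. It gave 0 of 11 basement membrane components. Of all genes tested, this comparison called 0.286% lower and 0.0357% higher. L122A against EGFP gave 5 of 22 focal adhesion genes, 3 of 11 basement membrane components and 3 of 10 ligands lower, and 0 higher in each. Among all genes tested, 1.99% were called lower and 0.893% higher in L122A against EGFP. Fibroblast markers were called lower for 1 of 8 in WT (Col3a1, -3.46, SE 0.46, adjusted p = 0.0287) and 4 of 8 in L122A, and extraembryonic endoderm markers for 0 of 10 in both. The part of the fibroblast markers in the transfectant differences was not tested.

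Lama1 with RA was highest in WT and lowest in EGFP. WT RA held 10.2 times the Lama1 level of EGFP RA (95% Poisson interval 9.42 to 11.1) and L122A RA 3.28 times (3.01 to 3.58). The test of whether the RA response differed between Nanog transfectants and EGFP called 0 members, with 0.00714% of all genes called. Unadjusted p was below 0.05 for 4 integrin subunits (Itga3, Itga4, Itgal and Itgb1) and 1 laminin chain, and DESeq2 called 0 and 1, limma 0 and 0. Lama1 had the smallest p of the laminin chains, with a response larger by 3.65 in the Nanog class (SE 0.85, edgeR adjusted p = 0.273). DESeq2 called it (3.63, adjusted p = 0.00178), as did edgeR without WT RA (2.63, adjusted p = 0.0403) or without L122A RA (4.28, adjusted p = 0.00395) and edgeR with no filter on low counts (3.70, adjusted p = 1.3e-10). The larger Lama1 response therefore passed in some settings and not in the model used throughout. Of all genes, DESeq2 called 264 (1.89%) for this difference and edgeR with no filter 684 (2.64%), against 1 in the model used throughout.

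Itga4, an alpha subunit that binds fibronectin and Vcam1, went in opposite directions with RA. It was at 1.68, 3.60 and 5.97 CPM with LIF, 1.18, 1.55 and 1.93 without and 8.85, 3.38 and 0.955 with RA. It thus rose 5.28-fold in EGFP and stood 6.25-fold lower in L122A RA than in L122A LIF. The difference of RA responses was -3.54 (SE 1.09, edgeR adjusted p = 0.333). It was called without WT RA (-4.70, adjusted p = 0.0491) and with no filter on low counts (-3.49, adjusted p = 0.0146). Cerkl lies in the span of Itga4 on the other strand, with 27.2% of its count.

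Among the remaining tested subunits, some were high in a single EGFP library. Itga1, a collagen receptor subunit, was at 9.51 CPM in EGFP RA and at 0.0986 to 1.78 in the other 8 libraries, so that EGFP RA was 30.8 times as high as L122A RA (95% Poisson interval 16.9 to 62.3). Its span holds Pelo on the same strand with 496% of its count. Itgb8, a partner of alpha V that activates TGF beta, was at 10.9 CPM in EGFP no-LIF and at 0 to 1.34 elsewhere. In L122A LIF and L122A no-LIF it had no count, so that EGFP no-LIF was at least 71.6-fold higher than L122A no-LIF (floor of 3 counts per library). Itga2b, the platelet alpha IIb subunit, was at 0.764 to 2.71 CPM and was called in no comparison.

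In pairs of libraries that share a culture, more integrin subunits lay past 2-fold from EGFP without LIF and with RA than with LIF, and so did more of all genes. At 2-fold with at least 5 CPM, WT against EGFP with LIF had 1 higher (Itgae) and 1 lower (Itga3) of 11 subunits. The share of all genes was 10.4%, and shares here count either direction. Without LIF it had 2 higher and 6 lower of 11 (16.2% of all genes), and with RA 0 higher and 6 lower of 12 (11.4%). L122A against EGFP had 3 higher and 1 lower of 12 with LIF (9.73%), 6 and 6 of 14 without LIF (20.3%), and 2 and 5 of 12 with RA (19.5%). L122A against WT had 1 higher and 0 lower of 11 (3.66%), 3 and 0 of 12 (8.14%) and 1 and 0 of 9 (7.33%). These pairs have no replicate and no test.

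Itga3, Itga5, Itga8, Itgav, Itgb1 and Itgb8 were the 6 lower subunits in both Nanog libraries without LIF. Itga3 was 6.61-fold lower in WT and 5.44-fold lower in L122A there, at 14.4 and 17.4 against 94.8 CPM. With RA, where it stood at 82.0, 69.2 and 98.1 CPM, it was past 2-fold in neither. Laminin chains past 2-fold were fewer. In LIF there were 0 of 6 for both WT and L122A against EGFP, and without LIF Lamb1-1 was lower in L122A (17.4 against 35.7 CPM). With RA, Lama1 was higher in WT, Lama1 and Lama4 were higher in L122A, and Lamb1-1 was lower in L122A (56.5 against 146).

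The other members were low and were not tested in the model used throughout. Itgad and Itgax had no count in any library, which allows up to 3 counts in each. Itga2, Itgb2 and Lamc3 stayed under 1 CPM in every library, with at most 31, 20 and 5 counts. Itga11, Itga7, Itgb6, Lama2 and Lamb3 passed 1 CPM in 1 or 2 libraries and did not reach the filter. Their highest values were 1.66 (WT RA), 1.15 (EGFP RA), 2.52 (EGFP RA), 1.72 (WT RA) and 1.76 CPM (EGFP no-LIF). Lamb3, the beta 3 chain of epidermal laminin, was at 0 or 0.0940 CPM in the RA libraries. With no filter on low counts, edgeR called Itga2 (3.73, adjusted p = 0.0276) and Lama2 (4.04, adjusted p = 0.0127) higher with RA against LIF. Against no-LIF it called Lama2 higher (3.47, adjusted p = 0.0247) and Lamb3 lower (-4.75, adjusted p = 0.0133).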

How the data were processed

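RNA from 9 libraries of RF8 cells, 1 per combination of 3 transfectants and 3 cultures, was analysed. Per the submitters' processing notes, TopHat2 2.0.11 and the mm9 build were used. No source used here names the program that counted reads, its strand setting or a read filter. Raw counts per gene, not normalized, and FPKM were deposited by the authors, per the file headers. In every library, 100% of genes above 5 FPKM were within 1% of count over length and total count. Columns ending in neg and pos match the sample titles, L122 was taken as L122A, and a name found in no label was assigned to the LIF culture by elimination.

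Members and lists were chosen with earlier results of these data known. Named with values in each library are members whose mean reached 5 CPM and members past a test; of each list, the counts and the 3 called genes with the largest change in each direction in RA against LIF and in WT against EGFP. Values of 1 laminin chain are not reported here; counts include it. A gene beside a member's result was named after its values were seen.

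The 13996 of 33495 genes that reached 1 CPM in 3 or more libraries were tested with edgeR 4.0.16 in R 4.3.3 (TMM factors, robust quasi-likelihood fit). The additive model of culture and transfectant had 4 residual degrees of freedom and a biological coefficient of variation of 0.325, and its spread is the departure from additivity, interaction included. Differences of responses were tested on class by culture means, where WT and L122A formed 1 Nanog class (coefficient 0.287, with 3 residual degrees of freedom) and the EGFP libraries were assumed to vary alike. The SE was derived as the log2 fold change divided by the root of F. Called means a Benjamini-Hochberg adjusted p below 0.05 over all genes tested. Pairs of libraries were compared without a test, with exact 95% Poisson intervals (conditional binomial), which cover counting error only. Levels of different genes were compared in FPKM. The models were tested on simulated data. Alternatives were RLE factors, total-count scaling, no filter, DESeq2 1.42.0, limma 3.58.1 on log2(FPKM + 1), only the 6 libraries compared, no second factor, and each library left out. Coordinates of genes are those of the table (mm9), and promoter windows are RefSeq's on GRCm38.p6, read with Python 3.11.15 and pandas 2.3.3 and not mixed with them.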

Additional observations from a re-analysis of the deposited data

How the results depend on the processing

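No call of a member changed direction under any alternative run, and RLE factors changed no count of called members. Direction was checked for called members only. Of the 39 calls of members over RA against LIF, RA against no-LIF and L122A against EGFP, DESeq2 kept all 39. For integrin subunits, RA against LIF gave 6 with no second factor. WT against EGFP gave 3 with no filter and 6 with DESeq2, and between 0 and 2 with 1 library left out. L122A against EGFP gave 9 with DESeq2, 1 with limma, 0 with only the 6 libraries compared, 0 with no second factor, and between 0 and 5 with 1 library left out. L122A against WT gave 1 with DESeq2. RA against LIF gave between 9 and 12, and RA against no-LIF between 5 and 9, with 1 library left out.

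For laminin chains, no-LIF against LIF gave 1 with DESeq2 and with only the 6 libraries compared, and 0 to 1 with 1 library left out. RA against LIF gave between 4 and 7, and RA against no-LIF between 5 and 7, with 1 library left out. L122A against EGFP gave 0 with total-count scaling, limma, only the 6 libraries compared and no second factor, and 0 to 1 with 1 library left out. L122A against WT gave 1 with DESeq2. The difference of RA responses gave 1 integrin subunit and 1 laminin chain with no filter, 1 laminin chain with DESeq2, and 0 to 1 of each with 1 library left out, and the no-LIF response 1 integrin subunit with no filter. Of 648 ratios in pairs of libraries (36 members by 18 pairs), 148 were past 2-fold with at least 5 CPM. At 3-fold there were 94, and at a minimum of 1 CPM there were 224. The 648 include members that never reached 5 CPM. Among all genes at 5 CPM in the higher library, the share past 2-fold ran from 3.66% (L122A against WT with LIF) to 47.3% (RA against LIF in WT). For all genes tested, counts of calls moved by over 1.5 times under several settings: 10, 45 and 403 genes in no-LIF against LIF, WT against EGFP and L122A against EGFP became 278, 614 and 1438 with DESeq2, and 0 in each with no second factor. The cause was not tested.

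The labels give no replicate numbers to pair, and the transfectant term already compares cultures within each transfectant. Without that term, laminin chains called were 5 for RA against LIF and 7 for RA against no-LIF. The laminin count for RA against LIF was 6 with no filter and 6 with only the 6 libraries compared. Against no-LIF these were 9 and 6. Members near 1 CPM rest on about 20 to 36 counts, and the LIF columns rest on a name assigned by elimination.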
